A study of Mus musculus with 64 samples.

Results

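RNA of the metabotropic glutamate receptors was followed in brain tissue of mice heterozygous for Cyfip2 Arg87Cys, from frontal cortex and from hippocampus. The rule took every row of the expression table whose Ensembl gene ID maps to Grm2, Grm3, Grm4, Grm5, Grm7 or Grm8, which gave 6 of 18432 genes. All 6 passed the filter on low values in every comparison. Heterozygous knock-in mice (Cyfip2+/R87C, KI) were compared with wild-type (WT) littermates, both on the C57BL/6N background, at 4 ages, counted in postnatal weeks (PWK), which were PWK 1, 7, 14 and 28. Each of the 16 groups of region, age and genotype held 4 libraries, and the 64 libraries were made from bulk RNA of dissected tissue. The knock-in is carried by all cells of the animal from conception, so by design the groups differ in 1 allele. The labels give no drug or other treatment. Adult KI animals differed from WT in more than the allele, since the study reports recurrent seizures, early deaths and lower body weight in them. The oldest KI libraries therefore come from survivors. The study used male and female mice, and the labels give no sex per library. The part of seizures, survival and sex in the late differences was not tested. The question put to these 6 genes was whether their RNA differed between the genotypes, from which age, and in which region.

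Metabotropic glutamate receptors are G protein-coupled receptors that sense glutamate and act more slowly than the ion channels it opens. Group I receptors, here Grm5, couple to Gq and phospholipase C, sit mostly beside the synapse on dendritic spines, and are tied to the postsynaptic scaffold by Homer and Shank proteins. Group II receptors, Grm2 and Grm3, and group III receptors, Grm4, Grm7 and Grm8, couple to Gi and Go, lower cyclic AMP and dampen transmitter release. Grm2 is mainly neuronal and presynaptic, Grm3 is found in neurons and in astrocytes, and Grm7 lies in the active zone of the presynaptic terminal.

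Coordinates are those of GRCm38 as annotated by GENCODE. Grm2 (ENSMUSG00000023192) lies at chr9:106643095-106656082 on the minus strand, Grm3 (ENSMUSG00000003974) at chr5:9485541-9725170 on the minus strand and Grm4 (ENSMUSG00000063239) at chr17:27422387-27521403 on the minus strand. Grm5 (ENSMUSG00000049583) lies at chr7:87584168-88134907 on the plus strand, Grm7 (ENSMUSG00000056755) at chr6:110645581-111567230 on the plus strand and Grm8 (ENSMUSG00000024211) at chr6:27275119-28135178 on the minus strand. All 6 are protein-coding. An exon of Grm2 overlaps the antisense gene Gm28111 by 470 bases, an exon of Grm7 overlaps the antisense gene Gm20387 by 130 bases, and Grm8 hosts the microRNA gene Mir592 in an exon. The library kit keeps strand, but the strand setting of the quantification was not given in the sources used here, so these overlaps could add reads to the host gene. Of these 3 genes, Gm20387 was in the table.

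RefSeq promoter entries (GRCm38.p6) matched 4 members, namely Grm2, Grm3, Grm7 and Grm8. The 250 bases before the start site are shown for Grm2 and Grm7, since these were the 2 receptors whose RNA passed the test in KI cortex at PWK 28, one lower and the other higher. Capitals mark matches, on either strand, to the GC box GGGCGG or to CCAAT. The sequences read 5′ to 3′ on the strand of the gene, at chr9:106656110-106656359 on the minus strand for Grm2 and chr6:110645262-110645511 on the plus strand for Grm7.
Grm2: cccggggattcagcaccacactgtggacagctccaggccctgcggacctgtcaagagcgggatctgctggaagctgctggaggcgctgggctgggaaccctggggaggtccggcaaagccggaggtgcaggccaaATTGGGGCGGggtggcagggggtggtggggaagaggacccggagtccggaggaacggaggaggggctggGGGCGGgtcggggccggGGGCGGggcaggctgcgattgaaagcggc
Grm7: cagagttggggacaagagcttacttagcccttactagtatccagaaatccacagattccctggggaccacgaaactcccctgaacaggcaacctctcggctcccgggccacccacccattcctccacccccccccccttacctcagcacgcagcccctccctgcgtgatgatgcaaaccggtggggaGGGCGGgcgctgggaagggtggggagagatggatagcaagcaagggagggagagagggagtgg
The Grm2 window held 3 GC boxes, one of which overlaps a reversed CCAAT, while the Grm7 window held 1 GC box and no CCAAT. GC boxes were present in 32.7% and CCAAT in 33.8% of all 32851 promoter windows of the same length. Neither window held the cAMP response element TGACGTCA (1.5% of all windows), TATAAA (12.4%) or TGANTCA (6.7%). The Grm2 window was 71.2% G or C with 16 CpG dinucleotides, and the Grm7 window 62.0% with 8, against medians of 52.4% and 6 over all windows.

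The libraries were similar in size. Totals of the normalized values ranged from 29.23 to 32.6 M per library. A rough depth, from the step size that best fitted the low values, was between 24.9 and 37.0 M reads. That step size fitted only 24.9 to 55.5% of the low values, so the depth is uncertain. The 6 genes were well measured at this depth, with means over all libraries from 401.0 normalized counts for Grm8 to 8205.9 for Grm5, and the lowest value in any library was 117.3, for Grm8. Cortical layer markers summed to between 6835.0 and 13969.2 in cortex and between 2823.0 and 4212.1 in hippocampus, whereas dentate granule markers summed to at most 5523.9 in cortex and at least 7772.8 in hippocampus. Markers of choroid plexus and ependyma varied widely between libraries. They summed to between 122.3 and 21263.1 in cortex and between 552.6 and 122277.4 in hippocampus. Total RNA of the edited gene, which does not read the codon and so does not check the labels, had a KI mean of 25726.9 and a WT mean of 34726.5 in cortex at PWK 28. The KI mean was the higher one in cortex at PWK 1 and 7 (38345.8 against 35622.6 at PWK 7) and in hippocampus at PWK 1, and in hippocampus at PWK 28 the means were 26863.3 and 27610.4. Some older KI libraries stood apart from the others of their group, and the results that rest on them are given with and without them. In bulk tissue, fewer cells of a type and less RNA per cell cannot be told apart.

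In WT mice Grm5 was the most abundant of the 6 receptors per length of transcript, in both regions and at every age. In WT cortex at PWK 28 its level was 865.7 ± 53.5 normalized counts per kb of the longest transcript (SD, n = 4). It was followed there by Grm3 with 587.8 ± 64.7, Grm7 with 406.6 ± 32.5, Grm2 with 268.1 ± 33.4, Grm4 with 170.3 ± 35.3 and Grm8 with 138.9 ± 22.1 per kb. The ranges of Grm4 and Grm8 overlapped there, and those of the other neighbours did not. By the longest transcript, cortex kept this order at all 4 ages. The ranges of Grm7 and Grm2 overlapped at PWK 7 and 14, and those of Grm4 and Grm8 at PWK 7, 14 and 28. Grm5 made up 35.5% of the summed level per kb of the 6 genes in cortex and 48.6% in hippocampus at PWK 28.

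In WT hippocampus Grm7 was second after Grm5, and Grm4 and Grm8 were the lowest. At PWK 28 the level per kb was 1190.2 ± 123.8 for Grm5, 399.0 ± 24.6 for Grm7, 369.9 ± 11.1 for Grm2, 360.8 ± 20.0 for Grm3, 84.5 ± 5.2 for Grm4 and 43.0 ± 6.5 for Grm8. The ranges of Grm7 and Grm2, and of Grm2 and Grm3, overlapped at this age. With the mean length of the coding transcripts in place of the longest transcript, Grm7 came before Grm3 in cortex and Grm8 before Grm4, while Grm5 stayed first in both regions at all 4 ages. Grm2 then came before Grm3 in cortex at PWK 14 and in hippocampus at PWK 1. In all, 19 of 48 ranks moved with this length.

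**Figure D1:**
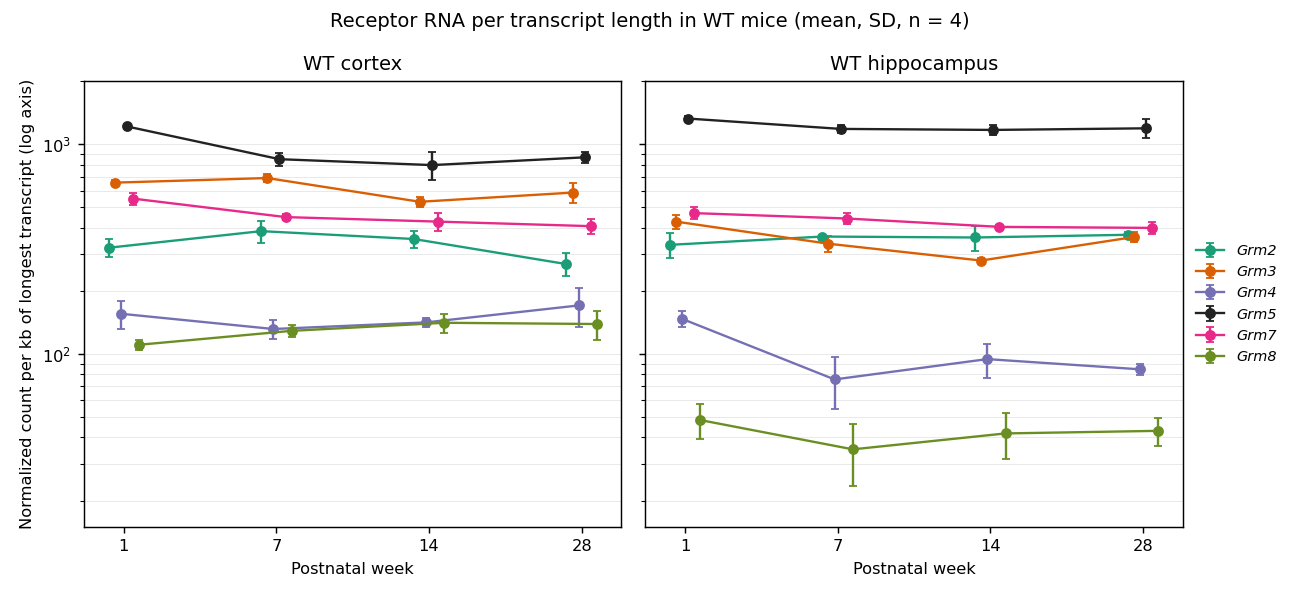
Level of each receptor in WT mice, in normalized counts per kb of the longest transcript (log axis), against postnatal week, with cortex on the left and hippocampus on the right. Points are means and whiskers SD of 4 mice; Grm5 lies at the top throughout, and Grm8 is separated from Grm4 in hippocampus but not in cortex from PWK 7.

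The receptors differed between the WT regions at every age. Calls rest on limma's test over all genes, with a Benjamini-Hochberg adjusted p below 0.05, and differences are on the scale of log2 of the normalized count plus 1. Hippocampus was compared with cortex in the 8 WT libraries of each age. At PWK 28, 5 of the 6 receptors were called, against 37.8% of all genes. At PWK 1 this held for 4 receptors (34.7% of all genes), at PWK 7 for 4 (40.8%) and at PWK 14 for 4 (34.6%). Regional differences were thus common among all genes, and the share of receptors is to be read against that.

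Grm8, a presynaptic group III receptor, showed the largest regional difference of the 6 in WT mice. At PWK 28 the WT cortical libraries held 516.8, 671.5, 758.5 and 718.7 normalized counts of Grm8 and the WT hippocampal libraries 171.4, 205.9, 201.3 and 247.0. Every hippocampal library lay below every cortical one. The log2 difference, hippocampus minus cortex, was -1.68 (SE 0.134, adjusted p = 1.43e-06, limma) at PWK 28, and it was -1.21, -1.925 and -1.78 at PWK 1, 7 and 14, called each time. Grm3 was also lower in hippocampus at all ages, by between -0.62 at PWK 1 and -1.04 at PWK 7 on the log2 scale. At PWK 28 Grm3 had 1100.1 ± 61.0 normalized counts in WT hippocampus and 1792.3 ± 197.4 in WT cortex (SD, n = 4 each).

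Grm5 was the receptor with the opposite regional order at all ages. It was higher in WT hippocampus by 0.12, 0.48, 0.57 and 0.455 on the log2 scale at PWK 1, 7, 14 and 28. The PWK 1 call was lost without hippocampal WT replicate 3 (adjusted p = 0.0517, limma) or replicate 4 (adjusted p = 0.0534, limma), and with all 64 libraries in 1 fit (adjusted p = 0.36, limma). Grm4 was lower in hippocampus at PWK 7, 14 and 28, by -0.83, -0.60 and -0.99 on the log2 scale. At PWK 1 its values overlapped, between 646.8 and 879.4 in cortex and between 597.4 and 726.9 in hippocampus. Grm7 differed at PWK 1 (-0.23, adjusted p = 0.0125, limma), but with total-sum scaling the difference was -0.133 and not called (adjusted p = 0.0606, limma). Grm2 differed at PWK 28 (0.47, adjusted p = 0.000581, limma), when its mean was 1742.5 ± 52.3 in hippocampus and 1263.0 ± 157.2 in cortex.

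With age, the widest change in WT mice was that of Grm4 in hippocampus between PWK 1 and PWK 7. Its 4 libraries held 726.9, 597.4, 682.4 and 705.0 normalized counts at PWK 1 and 276.9, 270.2, 474.4 and 371.8 at PWK 7. The 2 ages did not overlap, and the log2 difference was -0.99 (SE 0.154, adjusted p = 2.19e-05, limma, 16 WT libraries of the region in the fit). Grm3 fell in the same interval (-0.35 on the log2 scale) and so did Grm5 (-0.165), which made 3 of 6 receptors called in WT hippocampus against 62.2% of all genes. The call of Grm5 was lost without PWK 1 replicate 3 or 4 or PWK 7 replicate 1 or 2, with adjusted p between 0.054 and 0.0866 in limma, and with all 64 libraries in 1 fit (0.139). Grm8, with 167.8 to 267.9 normalized counts at PWK 1 and 117.3 to 240.8 at PWK 7, was not called (log2 difference -0.50, adjusted p = 0.0597, limma), though it was without PWK 1 replicate 2 (adjusted p = 0.0214) or PWK 7 replicate 3 (adjusted p = 0.00971), and with all 64 libraries in 1 fit (0.00832), sample quality weights (0.0204) or total-sum scaling (0.0409).

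In WT cortex Grm5 fell over the same weeks from 9780.1 ± 83.2 to 6824.7 ± 519.3 normalized counts (SD, n = 4), a log2 difference of -0.52 (adjusted p = 2.82e-05, limma). Grm7 fell from 2316.8 ± 154.9 to 1891.0 ± 63.0 and Grm2 rose from 1511.2 ± 146.9 to 1813.6 ± 214.9. These 3 of 6 receptors were called, against 65.5% of all genes. The rise of Grm2 was small, 0.26 on the log2 scale, and its call was lost without PWK 1 replicate 1 or 4 or PWK 7 replicate 2 or 4 (adjusted p between 0.0524 and 0.106, limma), and with all 64 libraries in 1 fit (0.193).

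After PWK 7 few receptors changed in WT mice. Between PWK 7 and 14, Grm3 was the 1 receptor called in cortex (-0.38 on the log2 scale, 5.31% of all genes called) and the 1 called in hippocampus (-0.26, 5.57% of all genes). The hippocampal call had an adjusted p of 0.0291 in limma and was lost without PWK 14 replicate 2, 3 or 4 or PWK 7 replicate 3 or 4 (adjusted p between 0.058 and 0.0877), with all 64 libraries in 1 fit (0.0903) and with the replicate block (0.0512). Without PWK 7 replicate 3, Grm4 was called in its place, with a rise of 0.50. Between PWK 14 and 28, Grm2 fell in WT cortex from 1664.1 ± 149.8 to 1263.0 ± 157.2 normalized counts (log2 difference -0.40, adjusted p = 0.00999, limma), the 1 receptor called there against 15.3% of all genes. That call was lost with the correction for GC content and length (adjusted p = 0.0622) and with all 64 libraries in 1 fit (adjusted p = 0.126). With the correction for GC content and length, Grm4 was called in its place, with a rise of 0.42 (adjusted p = 0.0268, limma). In hippocampus Grm3 rose over these weeks from 850.0 ± 28.2 to 1100.1 ± 61.0 (0.37, adjusted p = 0.00222, limma), the 1 receptor called against 11.6% of all genes.

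At PWK 1 and 7 none of the 6 receptors passed the test between KI and WT, in either region. In cortex, 0.00546% of all genes were called at PWK 1 and 0.00545% at PWK 7. In hippocampus 0.0109% were called at PWK 1 and 0.0218% at PWK 7. Unadjusted, limma gave a p under 0.05 for 965 genes at PWK 1 and 1477 at PWK 7 in cortex, and for 1003 and 1144 genes in hippocampus. Of the 6 receptors this held for 3 in cortex at PWK 1 (Grm2, Grm3 and Grm5), 3 in cortex at PWK 7 (Grm2, Grm3 and Grm4), 1 in hippocampus at PWK 1 (Grm3) and 0 in hippocampus at PWK 7. Grm2 had the higher mean in young KI cortex, without a call. At PWK 7 the KI libraries held 2178.2, 2154.7, 2257.9 and 1992.9 normalized counts of Grm2 and the WT libraries 1581.5, 1843.2, 1736.8 and 2092.8. One WT library lay within the KI range, and the group means were 2145.9 ± 111.2 and 1813.6 ± 214.9.

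Grm2, the presynaptic group II autoreceptor, was the receptor that fell most in KI cortex. At PWK 28 its KI libraries held 408.5, 935.0, 452.5 and 368.7 normalized counts and the WT libraries 1061.3, 1218.0, 1408.8 and 1363.9. All KI libraries lay below all WT libraries, and KI replicate 2, at 935.0, was nearer to the lowest WT library (1061.3) than to the next KI library (452.5). The KI mean was 42.8% of the WT mean, and the log2 difference was -1.32 (SE 0.246, 95% interval -1.86 to -0.78, adjusted p = 0.00437, limma, n = 4 per group). Without KI replicate 2 the difference was -1.62 (adjusted p = 1.5e-05). The call held in all 18 alternative settings, with differences between -1.62 and -1.17. Together with Grm7, described below, this made 2 of 6 receptors called, against 22.2% of all genes.

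**Figure D2:**
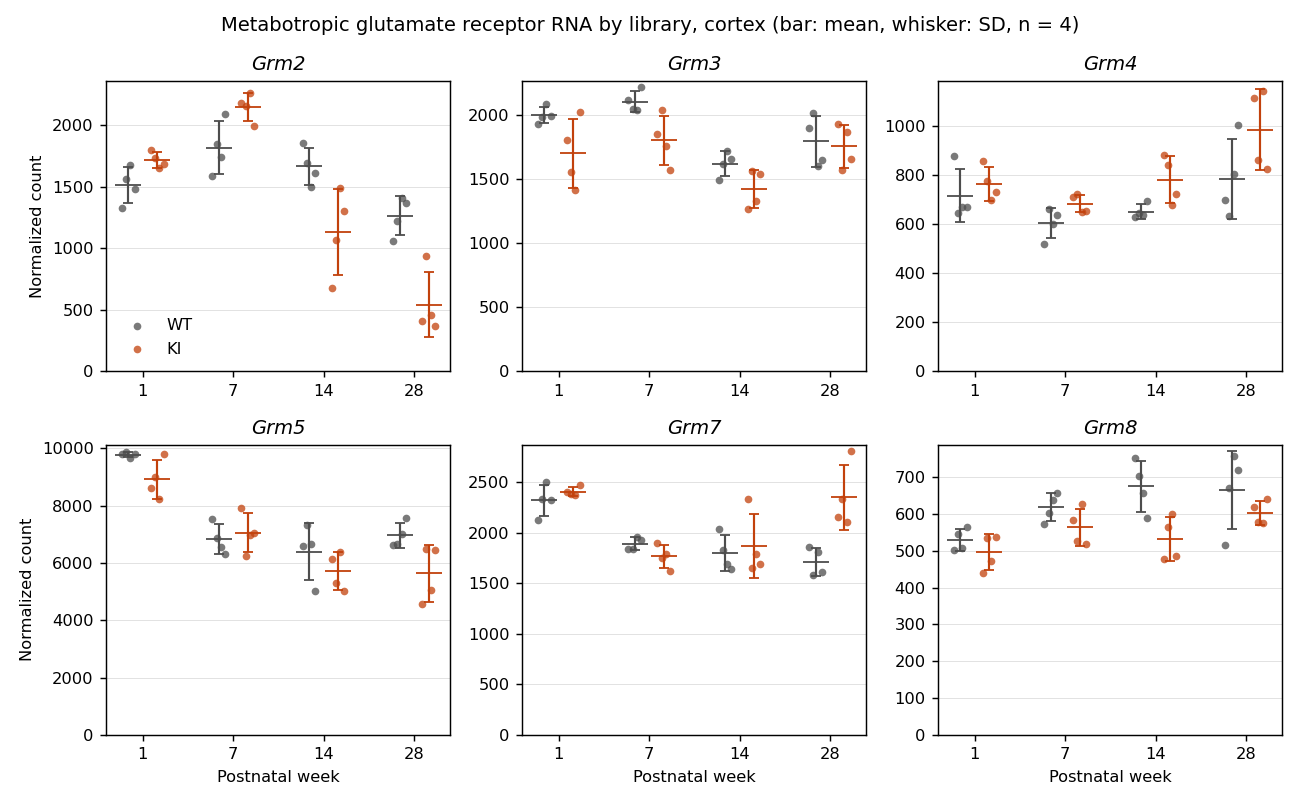
Normalized counts of the 6 receptors in cortex by postnatal week, with WT libraries in grey and KI libraries in orange. Points are single libraries, the bar is the mean and the whisker the SD of 4 mice; Grm2 separates the genotypes at PWK 28 with all KI libraries at or below 935.0, and Grm7 does so in the other direction.

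At PWK 14 the Grm2 difference in cortex had the same sign but was not called. The KI libraries held 672.7, 1062.0, 1486.0 and 1304.7 normalized counts and the WT libraries 1852.5, 1694.9, 1496.1 and 1612.7. The groups did not overlap, by a margin of 1486.0 against 1496.1. The log2 difference was -0.61 (SE 0.197, adjusted p = 0.104, limma). It was called without KI replicate 3 (-0.76, adjusted p = 0.0418) and with all 64 libraries in 1 fit (0.0158), and without KI replicate 1 it was -0.38 (adjusted p = 0.0763). No receptor was called in cortex at this age, against 5.18% of all genes. The fit of all 64 libraries called 1946 of all genes there, against 951 in the fit reported. With an unadjusted p, limma gave 4 receptors under 0.05, namely Grm2, Grm3, Grm4 and Grm8, and 3786 of all genes.

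Whether the KI effect on Grm2 changed with age was tested as an interaction. From PWK 14 to PWK 28 in cortex the effect moved by -0.71 on the log2 scale, with a 95% interval from -1.44 to 0.03 (adjusted p = 0.355, limma, 16 libraries). No receptor passed this test in either region, and 0% of all genes were called in cortex and 0% in hippocampus, while 2770 and 2274 genes had an unadjusted p under 0.05 in limma. Of the receptors, Grm7 in cortex was the 1 with an unadjusted p under 0.05. Without cortical KI replicate 2 of PWK 28 the change of the Grm2 effect was called (-1.005, adjusted p = 0.0385), and without KI replicate 1 of PWK 14 that of Grm7 was (0.52, adjusted p = 0.0468), as it was with all 64 libraries in 1 fit (0.0397). The fit of all 64 libraries called 913 of all genes for this change in cortex. A further interaction, chosen after seeing the data, compared PWK 28 with PWK 7. In cortex it called 2 receptors, against 16.4% of all genes. The effect on Grm2 differed by -1.57 (SE 0.280, adjusted p = 0.00112, limma) and that on Grm7 by 0.55 (SE 0.114, adjusted p = 0.00323, limma). In hippocampus the same comparison called none of the 6, against 7.76% of all genes. None of the 6 had an unadjusted p under 0.05 there in limma, as 4057 genes did. Both interactions share the PWK 28 libraries.

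In hippocampus Grm2 RNA did not follow its course in cortex. At PWK 28 the KI libraries held 2029.3, 1778.9, 1631.3 and 1660.6 normalized counts and the WT libraries 1671.2, 1784.1, 1779.2 and 1735.3, and the WT range lay within the KI range. The log2 difference was 0.02, with a 95% interval from -0.13 to 0.17. The KI effect in hippocampus exceeded that in cortex by 1.34 on the log2 scale (SE 0.281, adjusted p = 0.011, limma, 16 libraries), and Grm2 was the 1 receptor called in this test, against 4.57% of all genes. At PWK 14 the same difference was 0.70 (adjusted p = 0.2, limma), and none of the 6 was called against 2.85% of all genes. Unadjusted, Grm2 and Grm8 were under 0.05 at that age, as were 3257 of all genes.

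The other group II receptor, Grm3, gave no call between the genotypes. In KI cortex at PWK 28 it lay between 1573.1 and 1930.8 normalized counts and in WT cortex between 1603.5 and 2015.8, within which the groups overlapped almost entirely. The 95% interval of the difference was -0.24 to 0.18 on the log2 scale there and -0.14 to 0.12 in hippocampus. At PWK 7 in cortex the KI libraries, between 1572.0 and 2034.5, lay just below the WT libraries, between 2035.9 and 2216.5, without a call (-0.23, adjusted p = 0.387, limma). In hippocampus at PWK 1 the KI libraries, between 1010.4 and 1154.0, also lay below the WT libraries, between 1194.4 and 1430.7, again without a call (-0.24, adjusted p = 0.808, limma).

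Grm7, the group III receptor of the presynaptic active zone, rose in KI cortex at PWK 28. Its KI libraries held 2154.8, 2330.1, 2102.7 and 2806.0 normalized counts and the WT libraries 1854.8, 1582.1, 1802.9 and 1608.0. All KI libraries lay above all WT libraries, the highest being KI replicate 4. The difference was 0.45 on the log2 scale (SE 0.096, 95% interval 0.24 to 0.66, adjusted p = 0.00835, limma), or 1.37-fold, and it was called in all 18 alternatives, with values between 0.36 and 0.50. At PWK 14 in cortex KI replicate 1, at 2331.9, was above all other libraries, and the remaining KI libraries, between 1644.9 and 1791.8, lay within the WT range of 1640.3 to 2035.7.

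In hippocampus Grm7 was not called at either late age. At PWK 14 its KI libraries held 1797.9, 2103.9, 2633.0 and 1944.2 normalized counts and the WT libraries 1683.9, 1700.3, 1668.5 and 1742.9. The groups did not overlap, but the KI libraries were spread over a much wider range, and the difference of 0.30 on the log2 scale was not called (adjusted p = 0.0797, limma). Without KI replicate 1, which had the highest Gfap of all PWK 14 and 28 libraries, it was called (0.38, adjusted p = 0.0233), as it was with total-sum scaling (0.0428), all 64 libraries in 1 fit (0.00475) or sample quality weights (0.0189). Without KI replicate 3, the library at 2633.0, it shrank to 0.195 (adjusted p = 0.0916, limma). In sum, 4 of 18 alternatives gave a call. The fit of all 64 libraries called 6050 of all genes there, against 2870 in the fit reported. At PWK 28 the difference was 0.09, with a 95% interval from -0.06 to 0.23, and the regions did not differ by the test (-0.365, hippocampus minus cortex, adjusted p = 0.0994, limma).

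Grm5, the group I receptor, fell in KI hippocampus at both late ages. At PWK 14 its KI libraries held 6308.8, 7654.2, 6586.8 and 7809.8 normalized counts and the WT libraries 10008.9, 8868.6, 9729.4 and 9032.2. The KI libraries were all lower than the WT libraries, and the KI mean was 75.3% of the WT mean. The log2 difference was -0.41 (SE 0.083, 95% interval -0.60 to -0.23, adjusted p = 0.011, limma). Grm5 was the 1 receptor called at this age in hippocampus, against 15.6% of all genes, and without KI replicate 1 its difference was -0.36 (adjusted p = 0.0107).

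At PWK 28 the hippocampal KI libraries held 7380.4, 8856.3, 7502.4 and 7899.6 normalized counts of Grm5 and the WT libraries 10106.9, 10221.2, 8098.5 and 9883.4. The groups overlapped through WT replicate 3, which lay below KI replicate 2. The log2 difference was -0.27 (SE 0.080, adjusted p = 0.0394, limma). This call was lost without any one of KI replicates 1, 3 or 4 or WT replicates 1, 2 or 4, with adjusted p between 0.0674 and 0.112, and also with no filter on low values (0.0505) or a correction for GC content and length (0.0508). Without WT replicate 3 the difference was -0.35 (adjusted p = 0.00643). In cortex at PWK 28 the KI libraries held 4555.3, 6496.5, 5038.5 and 6454.7 and the WT libraries 6640.8, 6664.7, 6993.3 and 7565.8, again with no overlap. That difference, -0.32 on the log2 scale, was not called (adjusted p = 0.0616, limma), but it was without KI replicate 2 (-0.395, adjusted p = 0.0204) or KI replicate 4 (-0.39, adjusted p = 0.0365). It was also called with total-sum scaling (adjusted p = 0.046), quantile normalization (0.0258), all 64 libraries in 1 fit (0.00775), sample quality weights (0.0165) and the replicate block (0.0394), all in limma, with differences between -0.38 and -0.32. Without KI replicate 1 it shrank to -0.224 (adjusted p = 0.127, limma), and without KI replicate 3 to -0.272 (adjusted p = 0.151, limma). In sum, 7 of 18 alternatives gave a call. The fit of all 64 libraries called 6112 of all genes there, against 4081 in the fit reported. The KI effect on Grm5 did not differ by the test between the regions at PWK 28, the 95% interval of the difference being -0.27 to 0.36.

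**Figure D3:**
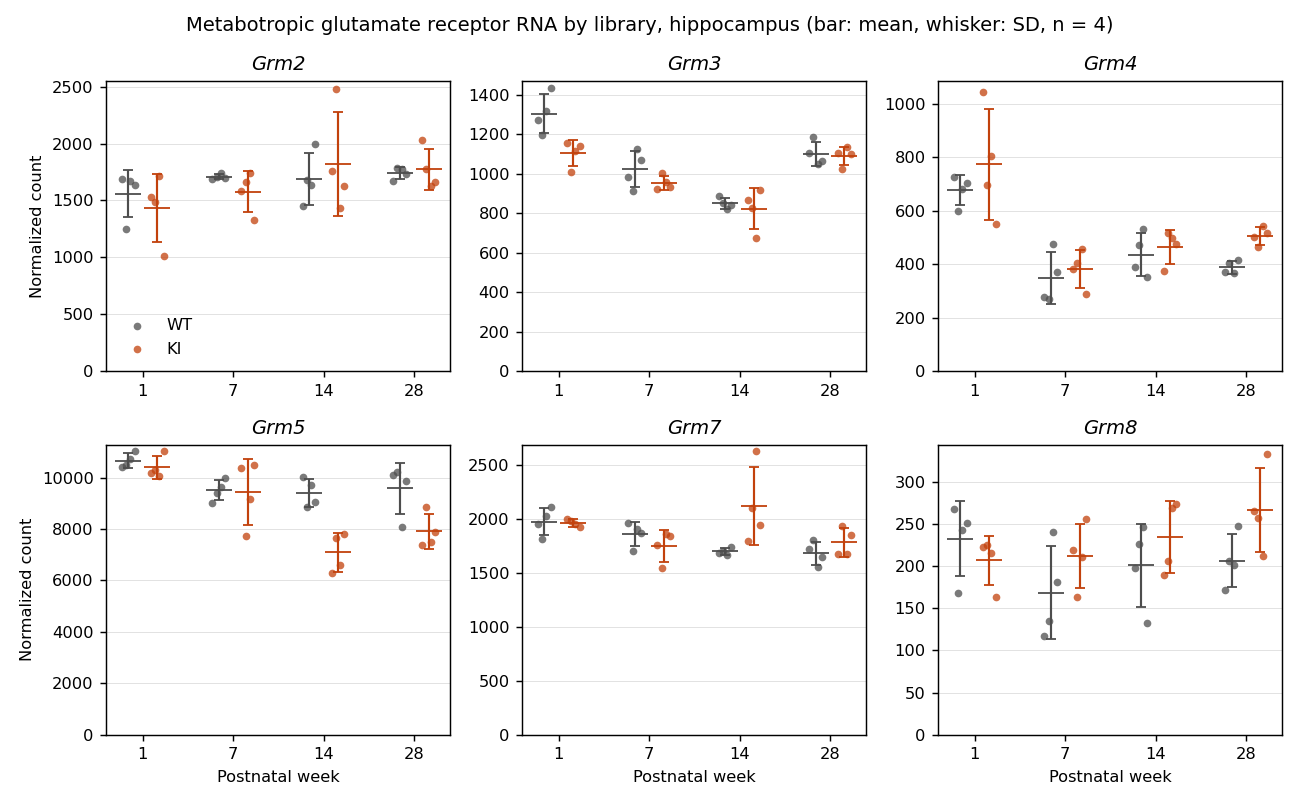
Normalized counts of the 6 receptors in hippocampus by postnatal week, with WT libraries in grey and KI libraries in orange. Points are single libraries, the bar is the mean and the whisker the SD of 4 mice; Grm5 is lower in KI at PWK 14 and 28, while Grm2 overlaps between the genotypes at all 4 ages.

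Grm4, a group III receptor of low abundance here, rose in KI hippocampus at PWK 28. Its KI libraries held 501.7, 462.6, 541.5 and 517.9 normalized counts and the WT libraries 371.4, 403.2, 366.1 and 415.6. All KI libraries lay above all WT libraries, with SDs of 33.2 and 24.1. The difference was 0.38 on the log2 scale (SE 0.079, 95% interval 0.20 to 0.55, adjusted p = 0.00895, limma), or 1.3-fold. The call was lost when all 64 libraries entered 1 fit (adjusted p = 0.0776) and held in the other 17 alternatives. With Grm5 this made 2 of 6 receptors called in hippocampus at PWK 28, against 15.8% of all genes. Cortical Grm4 at PWK 28 lay between 823.0 and 1141.6 in KI and between 632.5 and 1004.0 in WT, with overlap, and the difference of 0.34 had a 95% interval from -0.003 to 0.68 (adjusted p = 0.145, limma). The KI effect on Grm4 in hippocampus minus that in cortex was 0.04, with an interval from -0.34 to 0.43.

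Grm8 gave no call between the genotypes. In cortex at PWK 14 its KI libraries held 478.5, 565.6, 599.6 and 486.5 normalized counts and the WT libraries 751.8, 704.9, 656.3 and 589.0, which overlapped by 1 library of each genotype. The difference was -0.34 on the log2 scale (SE 0.101, adjusted p = 0.0792, limma). In hippocampus at PWK 28 it had the other sign, with 266.7 ± 50.1 in KI and 206.4 ± 31.1 in WT (SD, n = 4, log2 difference 0.36, adjusted p = 0.129, limma). The difference between the regions at PWK 28, 0.49 on the log2 scale, was not called either (adjusted p = 0.182, limma).

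**Figure D4:**
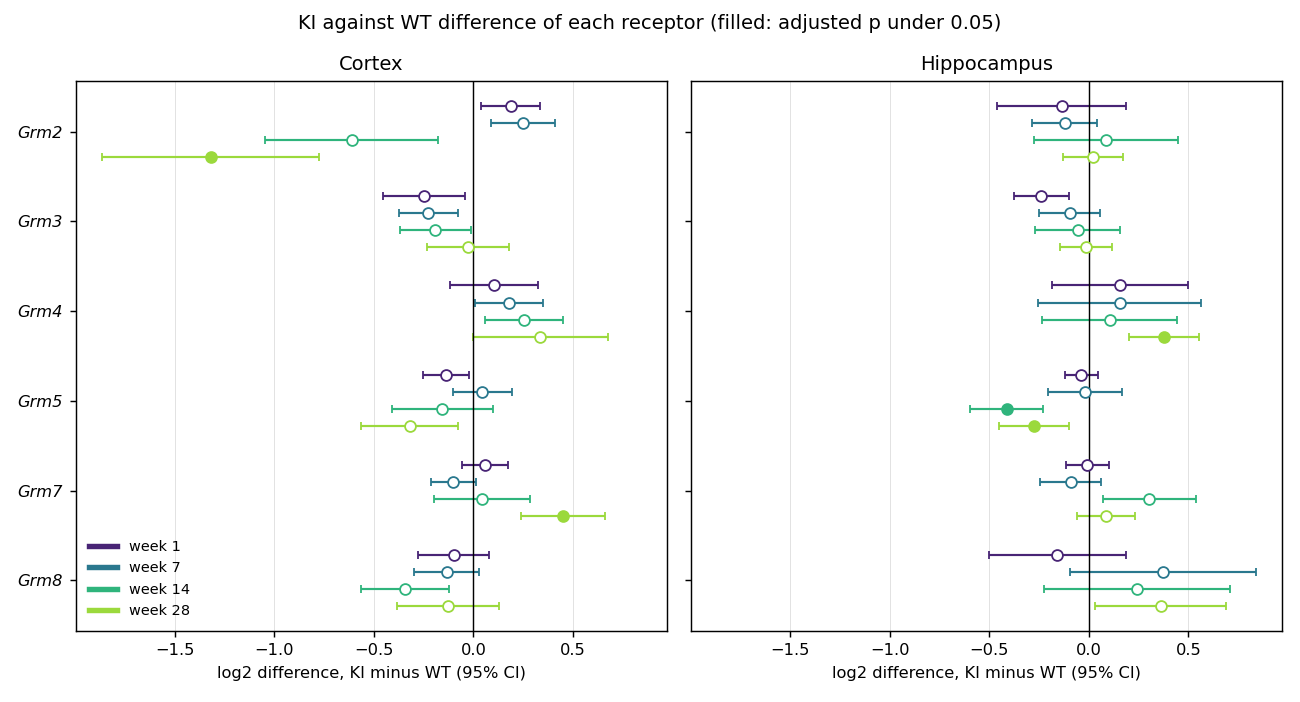
Difference of each receptor between KI and WT in log2 units, KI minus WT, with 95% intervals, for cortex on the left and hippocampus on the right, coloured by postnatal week. Filled points passed an adjusted p of 0.05; these are Grm2 and Grm7 in cortex at PWK 28, Grm5 in hippocampus at PWK 14 and 28, and Grm4 in hippocampus at PWK 28.

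Markers of other cells moved between the genotypes at the same ages as the receptors. The counts of markers called in cortex at PWK 28 are to be read against 22.2% of all genes. Of the 6 cortical layer markers, 3 were lower and 1 higher in KI cortex at PWK 28, and their summed level was between 7095.2 and 11506.8 normalized counts in KI and between 11354.3 and 12747.1 in WT. KI replicate 2, which had the most Grm2 of its group, also had the highest sum of these markers and the lowest Gfap, at 5845.7. KI replicate 4, with the least Grm2 (368.7), had the next-highest sum of the group (8632.4). The highest Gfap of the group, 14031.4, was in KI replicate 1, with Grm2 at 408.5. Of the excitatory neuron markers, 1 of 6 was higher, Slc17a7, and 1 lower, Camk2a. Their sum was between 162737.5 and 172043.6 in KI and between 168300.2 and 182204.0 in WT. Since these 2 genes moved in opposite directions, the sum does not show that the markers were stable. Of the inhibitory neuron markers, 5 of 8 were higher and 1 lower, with sums between 33547.6 and 56108.9 in KI and between 23692.6 and 30053.7 in WT. The CA1 and CA3 markers gave 3 of 6 higher and the dentate granule markers 1 of 6 higher and 2 lower in KI cortex. Markers listed for striatum and thalamus, and for glycinergic and hindbrain neurons, also separated the genotypes at PWK 28. Those of striatum and thalamus summed to between 8017.9 and 9427.8 in KI and between 3382.6 and 6301.0 in WT, with 1 of 6 called, Ppp1r1b (1.10 on the log2 scale), a phosphatase inhibitor of striatal neurons. The 3 genes listed for glycinergic and hindbrain neurons summed to between 149.3 and 1313.8 in KI and to at most 19.2 in WT, and Slc6a5 and Glra1 were called higher. At PWK 14 in cortex the striatum and thalamus sum was between 4703.2 and 12383.8 in KI and between 2807.4 and 3700.3 in WT. No marker of these lists was at 0 in all libraries of a group. The part of these markers in the cortical receptor differences was not tested.

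In hippocampus the astrocyte markers were prominent. The counts of markers called there are to be read against 15.6% of all genes at PWK 14 and 15.8% at PWK 28. At PWK 28, 5 of 9 were higher in KI, and their sum was between 221379.1 and 255812.3 in KI and between 161016.4 and 172065.4 in WT. At PWK 14, 3 of 9 were higher, with sums between 233643.1 and 329693.2 in KI and between 161427.7 and 189132.6 in WT. KI replicate 1 of PWK 14 had the highest sum and 131430.8 normalized counts of Gfap, the intermediate filament gene of reactive astrocytes. Gfap is itself part of this sum. The same library had the lowest Grm5 of its group, at 6308.8. KI replicate 3, with the next-lowest Grm5 (6586.8), had the lowest astrocyte sum of the group (233643.1). Microglial markers gave 5 of 7 higher at PWK 28, with sums between 12879.2 and 14980.4 in KI and between 10587.5 and 11506.5 in WT. Dentate granule markers gave 3 of 6 lower at PWK 14 and 1 higher and 1 lower at PWK 28, and CA1 and CA3 markers 3 of 6 lower at PWK 14. Inhibitory neuron markers gave 2 of 8 higher at PWK 14, with sums between 24037.2 and 33936.2 in KI and between 19547.7 and 22281.6 in WT, and 4 of 8 higher at PWK 28, with sums between 26043.6 and 29197.6 in KI and between 18700.3 and 20637.4 in WT. Of the 6 markers of striatum and thalamus, the dopamine receptor gene Drd1 was higher in KI at both ages and Ppp1r1b at PWK 28, while Prkcd was lower at both, and their sum at PWK 28 was between 3509.6 and 4610.1 in KI and between 2829.9 and 3271.1 in WT. Of the 3 glycinergic and hindbrain genes, Slc6a5 and Glra1 were higher in KI hippocampus at both ages, and the summed level at PWK 28 was between 816.0 and 1383.7 in KI and between 6.3 and 13.4 in WT. The part of these markers in the hippocampal receptor differences was not tested.

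The genes through which group I receptors signal fell more often than they rose at the late ages. The list held 30 names for 29 genes, since Grasp is also called Tamalin, and all 29 were measured. In KI cortex 10 were lower and 1 higher at PWK 14, and 10 lower and 3 higher at PWK 28. In KI hippocampus 7 were lower and 2 higher at PWK 14, and 7 lower and 1 higher at PWK 28. Of all genes, 5.18%, 22.2%, 15.6% and 15.8% were called in these comparisons, and 455 of 951, 2236 of 4081, 1407 of 2870 and 1640 of 2911 of the called genes were higher. The median log2 difference of the list was -0.20, -0.10, -0.20 and -0.05 in these comparisons, against -0.002, -0.003, 0.006 and 0.004 for all genes. None of the 29 was called at PWK 1 or 7. Some of the list, such as Homer1 and Shank3, were among synaptic genes that the study itself had picked from these libraries, so the list is not independent of them, and the receptors Grm2 and Grm5 were among those genes too.

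Homer2, a scaffold protein that binds the tail of group I receptors, fell in all 4 late comparisons. In cortex at PWK 28 it had 1685.7 ± 225.9 normalized counts in KI and 3222.3 ± 240.8 in WT (SD, n = 4, log2 difference -0.94, adjusted p = 0.000241, limma), and in hippocampus at PWK 14 it was at 2192.0 ± 513.0 against 3960.0 ± 236.4. Trpc5, a cation channel opened downstream of Gq, fell in cortex at PWK 28 (-1.045 on the log2 scale) and in hippocampus at PWK 14 (-1.05) and PWK 28 (-0.79). Itpr1, the receptor that releases calcium on inositol trisphosphate, fell in hippocampus (-0.925 at PWK 14 and -0.60 at PWK 28). Camk2a, the postsynaptic kinase, fell in cortex (-0.46 at PWK 14, then -0.72 at PWK 28), while Mgll, which breaks down the endocannabinoid made on group I signalling, fell by 0.518 at PWK 14. Ptpn5, a tyrosine phosphatase whose translation follows Grm5 activity, went the other way and rose in all 4 comparisons, by between 0.29 in cortex at PWK 14 and 0.55 in hippocampus at PWK 14. Cnr1, the cannabinoid receptor of presynaptic terminals, rose in cortex at PWK 28 from 6211.1 ± 134.8 in WT to 11181.4 ± 2900.5 in KI, and Ncdn, which binds the tail of Grm5, rose by 0.39 there. Grasp, which also binds group I receptors, rose in hippocampus at PWK 14 (0.76, adjusted p = 0.0495, limma).

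**Figure D5:**
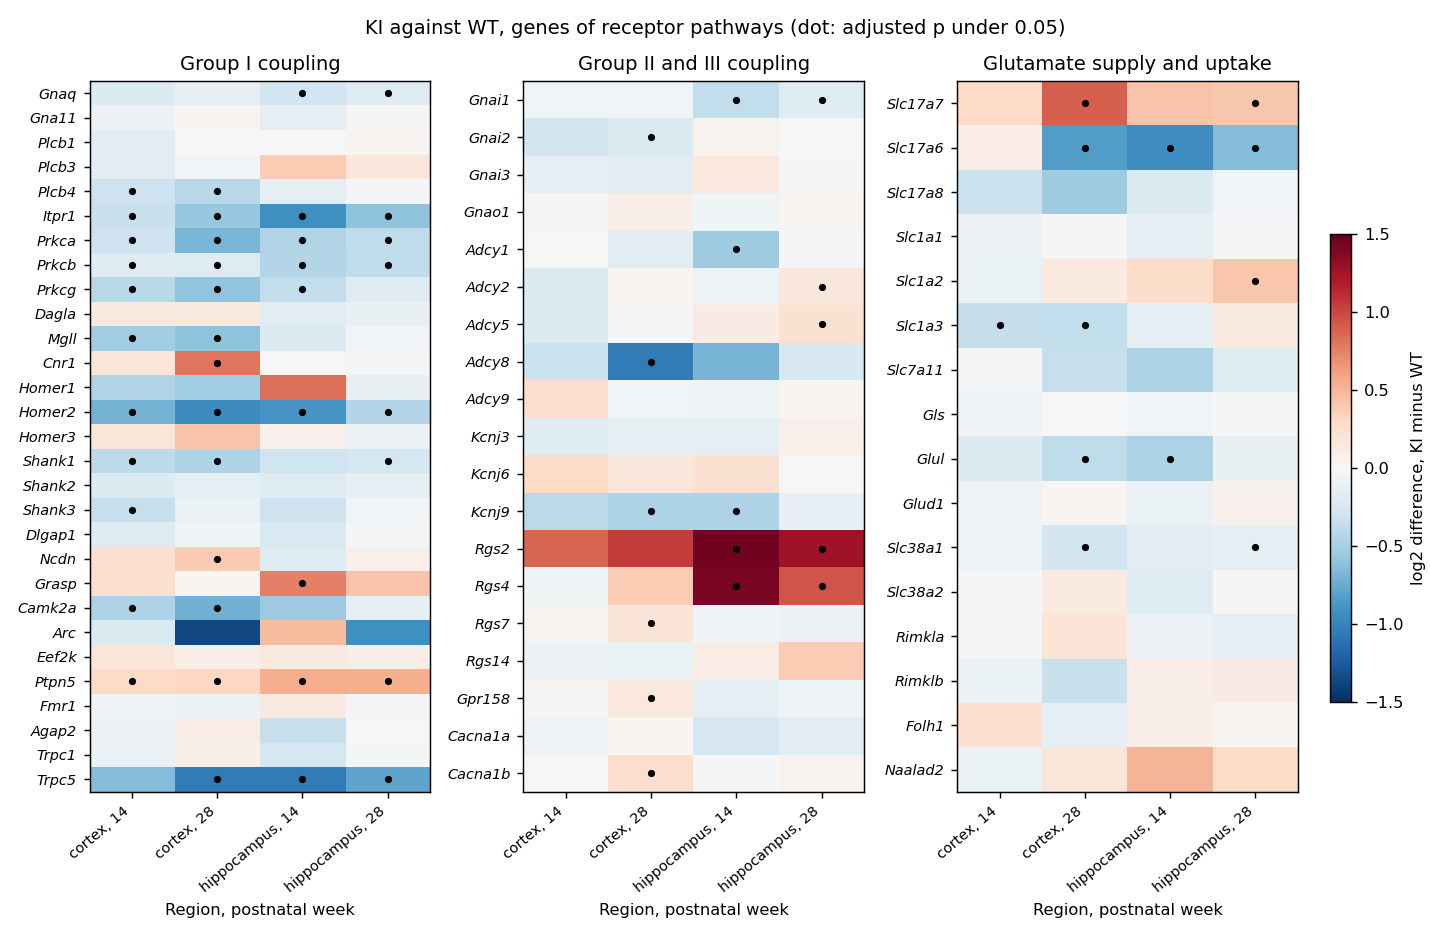
Log2 difference between KI and WT, KI minus WT, of each gene in 3 lists around the receptors, for cortex and hippocampus at PWK 14 and 28. Blue is lower and red higher in KI, and a dot marks an adjusted p under 0.05; Homer2, Itpr1, Prkca and Prkcb, all lower, and Ptpn5, higher, carry dots in all 4 columns.

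The genes of group II and III coupling showed no common direction. Of 19 measured genes, 0 were called in cortex at PWK 14 by limma, with a list median of -0.06. At PWK 28 in cortex, 3 were higher and 3 lower, and in hippocampus 2 were higher and 3 lower at PWK 14 and 4 higher and 1 lower at PWK 28. Of all genes, 5.18% were called in cortex at PWK 14 and 22.2% at PWK 28. In hippocampus the shares were 15.6% and 15.8%. Rgs2 and Rgs4, which speed the turn-off of G proteins but not only of those used by groups II and III, rose in KI hippocampus. Rgs4 had 9370.2 ± 3165.0 normalized counts in KI and 3334.5 ± 55.3 in WT at PWK 14 (SD, n = 4, log2 difference 1.43, adjusted p = 0.00263, limma), and it rose by 0.945 at PWK 28, while Rgs2 rose by 1.45 and 1.28. Adcy8, a calcium-stimulated adenylyl cyclase, fell in cortex at PWK 28 from 604.8 ± 85.7 to 296.1 ± 71.3, and Kcnj9, a subunit of the G protein-gated potassium channel, fell there (-0.46) and in hippocampus at PWK 14 (-0.46). Gnai1, a Gi subunit, fell in hippocampus (-0.375 and -0.185 at the 2 ages), as did Adcy1, another cyclase, at PWK 14 (-0.54). Adcy5 rose in hippocampus at PWK 28 by 0.23. In cortex at PWK 28 the rises were those of Cacna1b, a presynaptic calcium channel (0.26), Rgs7 (0.19) and the orphan receptor Gpr158 (0.16), and Gnai2 fell by 0.219.

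Among 6 partners of the group III receptors, Elfn2, a synaptic adhesion protein that binds them, fell in KI hippocampus. It had 6085.6 ± 767.8 normalized counts in KI and 8041.5 ± 461.9 in WT at PWK 14 and 5544.5 ± 454.2 against 7549.9 ± 250.6 at PWK 28 (adjusted p = 0.0171 and 0.000647, limma). Grip1, a scaffold protein, rose there by 0.37 at PWK 14. That made 1 of 6 higher and 1 lower in hippocampus at PWK 14, against 15.6% of all genes called. None was called in cortex at that age by limma, against 5.18% of all genes.

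Genes that supply and clear glutamate, the ligand of all 6 receptors, moved in both directions. Of 16 measured genes, 1 was lower in cortex at PWK 14 (5.18% of all genes called), 1 higher and 4 lower in cortex at PWK 28 (22.2%), 2 lower in hippocampus at PWK 14 (15.6%), and 2 higher and 2 lower in hippocampus at PWK 28 (15.8%). The vesicular transporter Slc17a7 rose in cortex at PWK 28 from 37780.5 ± 2266.6 in WT to 70649.0 ± 9835.4 in KI (SD, n = 4, log2 difference 0.89, adjusted p = 0.000367, limma) and in hippocampus at PWK 28 by 0.40. Another vesicular transporter, Slc17a6, fell in cortex at PWK 28 (-0.84) and in hippocampus at both late ages (-0.935 and -0.65). The glial transporter Slc1a3 fell in cortex at both (-0.36 and -0.37), and Slc1a2 rose in hippocampus at PWK 28 (0.41). Glutamine synthetase, Glul, fell in cortex at PWK 28 (-0.38) and in hippocampus at PWK 14 (-0.48). Slc38a1, a glutamine transporter, fell by 0.152 in hippocampus at PWK 28. Slc1a2 and Slc1a3 were also on the astrocyte list, and Slc17a7 on that of excitatory neurons.

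Across the 16 group means of log2 values, the receptors followed different patterns. Over pairs of members, Pearson's r was highest for Grm3 and Grm8 (0.895), both lower in hippocampus, and lowest for Grm5 and Grm8 (-0.704). Among the 12819 genes with a mean of at least 100, the pattern of Grm2 was most like those of Frzb (r = 0.838), Slc25a30 (0.826) and Npy1r (0.812), and less close to its nearest genes than that of any other member. Among the genes nearest to Grm5 were Scn3b (0.967) and Eml6 (0.965). Grm7 was nearest to Bmpr2 (0.959), Pabpc4 (0.931) and B230219D22Rik (0.928), and Grm8 to Cobl (0.987), Gabra3 (0.973) and Dpp10 (0.973). Grm3 was nearest to Gm40841 (0.96), Gm37176 (0.953) and Mff (0.942), and Grm4 to Flrt1 (0.963), Vcpkmt (0.949) and Limk1 (0.943). These groups share regions, ages and the scaling of the libraries, and the values describe the table only.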

How the data were processed

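Libraries were made with a stranded TruSeq kit, which the labels give as an mRNA kit and the study's methods as a total RNA kit. The authors quantified transcripts with Salmon and summed them to genes, and the table holds the signal they deposited, estimated counts scaled with DESeq2 over all 64 libraries. The submitters' processing notes name GRCm38, Salmon 0.11.2, R 3.6.0 and DESeq2 1.19.11. Whole reads could not be recovered, so no count test was run. With the step size that fitted best in a search, 24.9 to 55.5% of low values lay within 0.1 of a whole read. Chance gives 20.0% for a step fixed beforehand, and more for the best of a search. GENCODE vM21 matched 18420 of 18432 gene IDs.

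Values were compared with limma-trend (limma 3.58.1, R 4.3.3) on log2(value + 1), which understates changes of low genes, over genes with a mean of at least 1 in the libraries compared, with Benjamini-Hochberg adjustment over these genes and a threshold of 0.05. The procedure was tested on simulated data. Genotypes were compared within region and age (4 against 4 libraries), WT ages within region (16 libraries), WT regions within age (8 libraries), and interactions in the 16 libraries involved. P-values measure the spread between these libraries. Named are the 6 receptors, the called genes of 4 pathway lists (at most 3 per direction, list and comparison, by size) and the 3 genes nearest each receptor. Some results under this rule are not reported here. Homer1, Shank3, Prkca, Prkcb, Slc6a5, Glra1, Ppp1r1b, Drd1 and Prkcd were named after their values were seen. The members, lists and tests were chosen with earlier results of these data known. Alternatives were a pseudocount of 0.5 or 8, no filter or a mean of at least 50, total-sum scaling, quantile normalization, a fit of all 64 libraries, sample quality weights, a replicate block, a correction for GC content and length, and leaving out each library.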

Additional observations from a re-analysis of the deposited data

Results flagged for a closer look

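In 5 of 96 groups of 4 libraries, the highest or lowest library stood apart from the other three by more of the range than Dixon's critical value allows, and chance flags about 1 in 20 groups. Grm2 in cortex KI replicate 2 at PWK 28 had 935.0 normalized counts, where the nearest of the other libraries had 452.5. Grm2 in hippocampus WT replicate 2 at PWK 1 had 1248.3 (nearest 1632.4). Grm4 in cortex WT replicate 1 at PWK 1 had 879.4 (nearest 671.4). Grm5 in hippocampus WT replicate 3 at PWK 28 had 8098.5 (nearest 9883.4). Grm8 in hippocampus KI replicate 4 at PWK 1 had 163.0 (nearest 215.3).

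Tests of the difference itself showed 3 effects of the genotype that differed between ages or regions. In cortex the KI effect on Grm2 at PWK 28 differed from that at PWK 7 by -1.568 on the log2 scale (SE 0.28, adjusted p = 0.00112, limma), and that on Grm7 by 0.55 (SE 0.114, adjusted p = 0.00323, limma), in a comparison of ages chosen after seeing the data. At PWK 28 the KI effect on Grm2 in hippocampus exceeded that in cortex by 1.341 (SE 0.281, adjusted p = 0.011, limma).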

How the results depend on the processing

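Of 480 alternative counts of receptors called, 453 stayed within 1.5 times the reported count and 27 did not. With all 64 libraries in 1 fit, the genotypes differed in 1 receptor in cortex at PWK 14 and in 2 receptors in hippocampus at that age, then 1 at PWK 28, with 1 in the change of the KI effect from PWK 14 to 28 in cortex, 0 in WT cortex between PWK 14 and 28 and 0 in WT hippocampus between PWK 7 and 14. Total-sum scaling gave 2 in hippocampus at PWK 14 between genotypes and 5 in WT hippocampus between PWK 1 and 7, sample quality weights gave 2 in hippocampus at PWK 14, and no filter or the correction for GC content and length gave 1 in hippocampus at PWK 28. Leaving out 1 library gave 0 to 1 receptors in cortex at PWK 14, and in hippocampus 1 to 2 at PWK 14 as well as 1 to 2 at PWK 28, then 0 to 1 for the change from PWK 14 to 28 in cortex, and 0 to 1 in WT hippocampus between PWK 7 and 14. Counts over all genes moved as well. With all 64 libraries in 1 fit, 1946 genes were called in cortex at PWK 14, against 951 in the fit reported. In hippocampus at PWK 14 they were 6050 against 2870. The change of the KI effect from PWK 14 to 28 in cortex gave 913 against 0. WT hippocampus between PWK 7 and 14 gave 405 against 1025. The cause of these changes was not tested. Of 1232 alternative values of 64 receptor differences, 1169 kept direction and side of the threshold, 32 lost a call, 31 gained one and 0 changed sign. Of 80 further differences, never called and with an unadjusted p of at least 0.05, 33 changed sign under some alternative, none to a size above 0.143 on the log2 scale. Of the called genes, the share that rose in KI cortex was 47.8% at PWK 14 (60.4% with total-sum scaling) and 54.8% at PWK 28 (43.7% with it), and in KI hippocampus 56.3% at PWK 28 (40.6% with it).

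The labels give groups the same replicate numbers without saying what a number marks, and the samples were not treated as pairs. Over 12819 genes, the deviations of cortical and hippocampal libraries of the same genotype and age had a mean correlation of 0.14 for the same number (17 of 32 pairs over 0.1) and -0.046 for different numbers (12 of 96 over 0.1). For KI and WT libraries of the same region and age it was 0.026 for the same number and -0.009 for different numbers. With the replicate block, 2 receptors were called in the difference of the KI effect between regions at PWK 28, where Grm8 joined Grm2, and 0 in WT hippocampus between PWK 7 and 14.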
